A study of Homo sapiens with 6 samples.

Results

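A set of 58 genes of the Wnt pathway was followed in A2780 cells, an ovarian carcinoma line, without and with a CRISPR/Cas9 knock-out of CDK12. The set was written as a list of symbols: WNT ligands, the proteins that modify and carry them, receptors, secreted inhibitors, the cytoplasmic relay and the TCF/LEF transcription factors. All 58 symbols were found by Ensembl identifier among the 60483 genes counted, and 42 of them passed the filter on low counts that left 16198 genes for testing. The WT group is the parental A2780 line and the KO group is the A2780 line transfected with a Cas9 plasmid aimed at exon 1 of CDK12, with 3 libraries of untreated cells each. The paper describes a second round of transfection and selection, on a heterozygous clone. It also reports a higher DNA content and chromosome number in the KO cells than in the parental line. The KO group is a single clone, so what CDK12 loss does and what sets this clone apart cannot be told apart, and nothing in the labels says that the libraries of a group came from separate cultures, so p-values measure the spread between these libraries only.

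Wnt proteins are secreted lipid-modified ligands that bind Frizzled receptors and the LRP5 or LRP6 coreceptor. Without ligand, a complex of AXIN, APC and GSK3B marks beta-catenin, the product of CTNNB1, for degradation. With ligand, Dishevelled proteins block that complex, beta-catenin enters the nucleus and binds a TCF/LEF factor, and target genes are transcribed, several of which encode inhibitors of the pathway itself. Among the TCF/LEF factors, LEF1 and TCF7 are known mainly as activators with beta-catenin, and TCF7L1 mainly as a repressor.

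Total counts per library were 11098400 to 30899045 and were lowest in WT replicate 3, where 3 counts correspond to 0.27 CPM, the count relative to the TMM-scaled library total. Such floors cover counting error only. CDK12 had 2831, 3759 and 1294 counts in WT and 2432, 2504 and 1818 in KO. The log2 fold change, KO over WT, written log2FC with its standard error (SE) in what follows, was -0.23 (edgeR quasi-likelihood test, adjusted p = 8.2e-04), and gene counts do not separate edited from unedited transcripts. Of 10 genes examined for the labelled tissue, 9 were epithelial or ovarian carcinoma markers and the other was VIM, a mesenchymal marker, which alone held 7240 CPM on average in WT and 1490 CPM in KO (log2FC -2.28). The keratins KRT18 and KRT8 were present and higher in KO, with 59.9 and 103 CPM (log2FC 0.78) and with 7.34 and 11 CPM (log2FC 0.56), and EPCAM was low, with 3.19 and 2.17 CPM (log2FC -0.53). KRT19 lay under 0.45 CPM, and CDH1, PAX8, WT1, MUC16 and KRT7 at or under 0.22 CPM, in every library. In bulk RNA, fewer cells with a transcript and less of it per cell cannot be told apart.

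The TCF/LEF factors changed in make-up. LEF1 rose from almost no reads, TCF7L1 fell to a small part of its WT level, and TCF7 and TCF7L2 moved by less than the fold threshold. LEF1 (ENSG00000138795, chromosome 4 from 108047545 to 108168956, GRCh38) received 1, 2 and 3 reads in the WT cells against 691, 775 and 524 in the KO clone. Every KO library lay far above every WT library. In CPM the KO level was 28.8 ± 0.661 (SD, n = 3), and the ratio of the pooled counts was 328-fold, with a 95% exact interval of 150 to 894 that covers counting error only. The fitted log2FC was 8.27 (SE 0.194, edgeR adjusted p 3.72e-27). LEF1-AS1 is annotated on the opposite strand across the start of the gene, and without the strand setting of the counting, reads of the overlap cannot be assigned with certainty.

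TCF7L1 (ENSG00000152284, chromosome 2 from 85133392 to 85310387) had 27.4, 28.3 and 25.4 CPM in the WT cells against 2.03, 1.86 and 2.47 in the KO clone. The groups were far apart, 13.1-fold in the fit, with a log2FC of -3.71 (SE 0.108, edgeR adjusted p 1.9e-24). TCF7 had 23.3, 27.0 and 24.4 CPM in the WT cells against 15.8, 17.4 and 15.1 in the KO clone, and TCF7L2 had 33.5, 29.5 and 31.2 CPM in the WT cells against 40.5, 38.7 and 44.2 in the KO clone. Neither gene's groups overlapped. The log2FC values were -0.63 for TCF7 (edgeR adjusted p 1.96e-08) and 0.38 for TCF7L2 (edgeR adjusted p 6.11e-06). CTNNB1, which encodes the partner of these factors, had 404, 411 and 397 CPM in the WT cells against 430, 415 and 416 in the KO clone. Its KO libraries lay just above its WT libraries, and the log2FC of 0.06 did not pass the test (SE 0.0454, edgeR adjusted p 0.279).

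**Figure D1:**
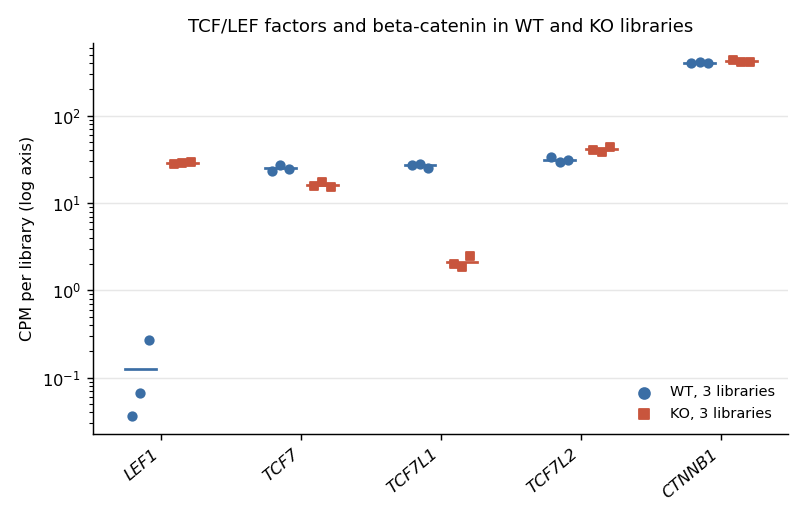
Level of the TCF/LEF factors and of CTNNB1 in each library, in CPM on a log axis; circles are WT, squares are KO, and the short lines are group means. LEF1 rises from at most 0.27 CPM to at least 28.1 CPM and TCF7L1 falls to at most 2.47 CPM, while CTNNB1 stays between 397 and 430 CPM.

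To compare levels between genes, CPM was divided by the length of all annotated exons in kb. On this scale the summed level of LEF1, TCF7, TCF7L1 and TCF7L2 was 13.5, 13.5 and 12.8 CPM per kb in WT and 13.3, 13.3 and 14.1 in KO. The groups overlapped in this sum, a result that depends on the exon lengths used. TCF7L1 made up 46.0% ± 1.42 of that sum in WT and 3.53% ± 0.403 in KO (SD, n = 3 each). LEF1 made up 0.178% ± 0.187 in WT and 39.6% ± 0.77 in KO. The share of TCF7L2 was 35.2% ± 2.32 in WT and 45.0% ± 1.58 in KO, and that of TCF7 was 18.6% ± 1.4 and 11.8% ± 1.21. Per kb, TCF7L1 was thus the factor with the highest level in WT, and TCF7L2, followed by LEF1, in KO. As shares of the reads of these 4 genes, without the division by length, LEF1 held 0.151% in WT and 32.7% in KO, TCF7L1 32.4% and 2.4%, and TCF7L2 37.6% and 46.6%, so TCF7L2 and not TCF7L1 had the most reads in WT.

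**Figure D2:**
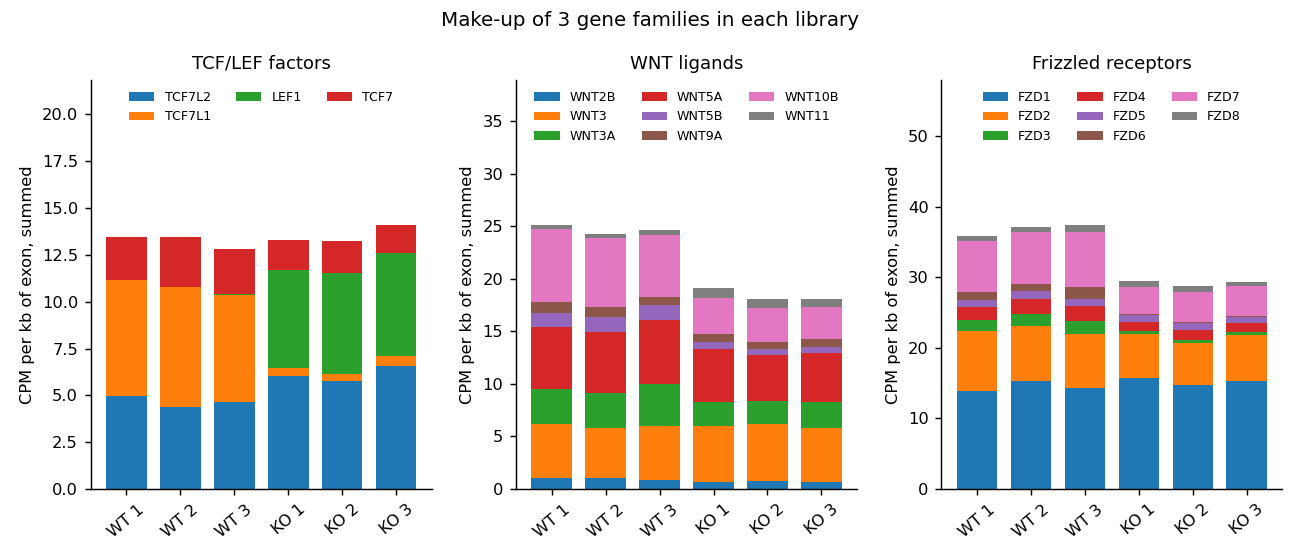
Level of each TCF/LEF factor, WNT ligand and Frizzled receptor stacked in each library, in CPM per kb of exon, without genes close to 0 in both groups. Per kb, the TCF/LEF sum overlaps between the groups at 12.8 to 14.1 while its parts change, and the ligand and Frizzled sums are lower in all KO libraries.

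Across all roles, 34 of the 42 tested members had an adjusted p under 0.05 in edgeR's quasi-likelihood test. Of all 42, 24 (57.1%) were lower in KO, where 32.0% of all 16198 tested genes were lower, and 10 (23.8%) were higher, against 31.9% of all tested genes. Past a log2FC of 1 as well, 11 members (26.2%) were lower in KO, against 7.73% of all tested genes, and 3 (7.14%) were higher, against 8.30%. The share of members called lower was above the background, and the share called higher was not. LEF1, RNF43 and WLS rose, and TCF7L1, AXIN2, FZD3, FZD6, WNT5B, DKK1, DKK3, WIF1, NKD1, NKD2 and NOTUM fell. The median log2FC of the tested members was -0.30, against 0.00 over all tested genes. The libraries of the groups did not overlap for 38 members (90.5%), against 66.4% of all tested genes, and for each of the 14 members past both thresholds the exact permutation test gave p = 0.1, the smallest that 3 libraries against 3 allow. Of the 42, 3 (LEF1, WIF1 and FRZB) passed the filter through 1 group only, and the members were chosen with results of these data known, so these counts are a description.

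**Figure D3:**
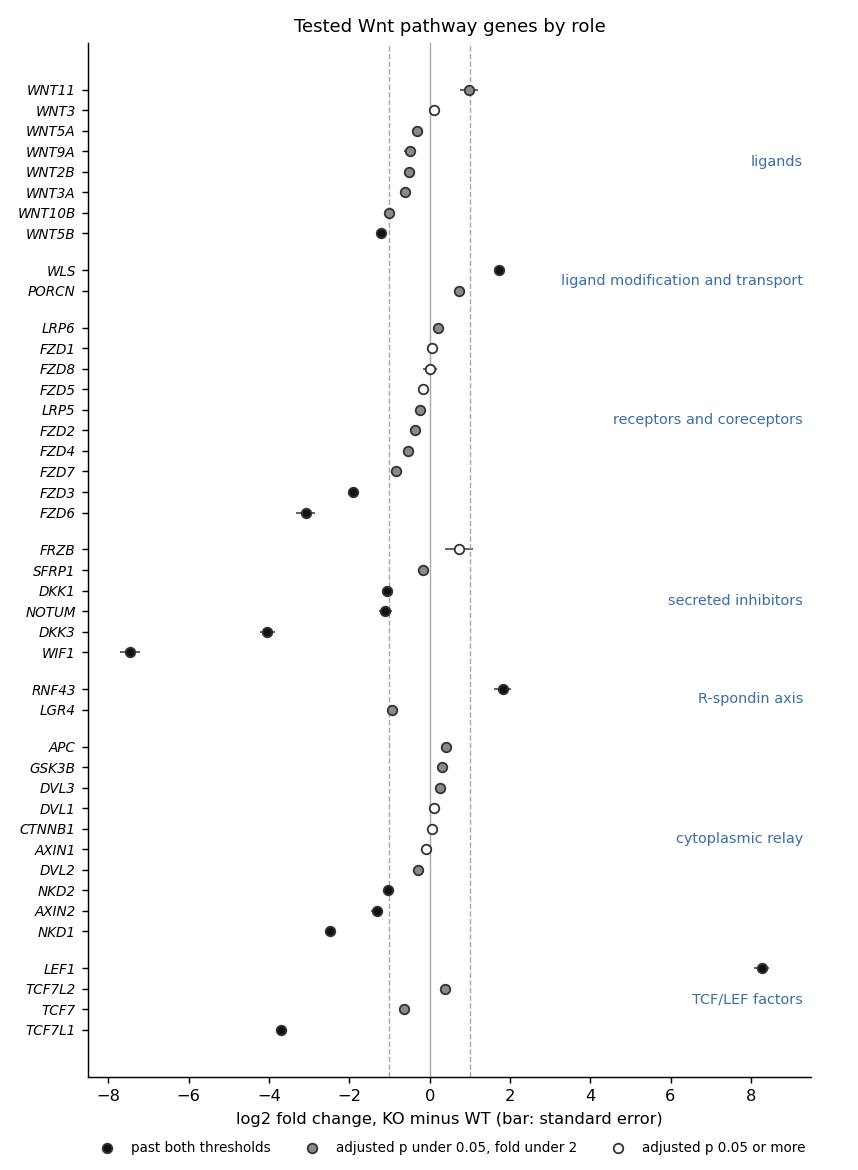
Log2 fold change of the 42 tested members, KO minus WT, ordered by role, with bars for the standard error and dashed lines at the fold threshold; black points passed both thresholds, gray points the adjusted p only and white points neither. The points of the secreted inhibitors reach furthest down, to -7.47 for WIF1, and LEF1 lies alone at 8.27.

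Of the 9 secreted inhibitors in the set, 6 were tested, with a median log2FC of -1.08. Past both thresholds, 4 of them fell, as did 7.73% of all tested genes, and WIF1 among the 4 had passed the filter through WT only. WIF1 (ENSG00000156076, chromosome 12 from 65050626 to 65121305), a secreted protein that binds WNT ligands directly, had 321, 332 and 115 counts in WT and 2, 1 and 1 in KO. The WT libraries held 10.4 to 11.7 CPM and the KO libraries at most 0.0814 CPM, a ratio of 194-fold from the pooled counts (95% exact interval 75.6 to 715, counting error only). The log2FC in the fit was -7.47 (SE 0.253, edgeR adjusted p 1.31e-22).

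DKK3, a member of the Dickkopf family of secreted proteins, had 10.0, 8.74 and 10.4 CPM in the WT cells against 0.448, 0.631 and 0.674 in the KO clone, a log2FC of -4.04 (SE 0.178, edgeR adjusted p 1.74e-19). DKK1, which blocks the LRP5 and LRP6 coreceptors, had 320, 271 and 290 CPM in the WT cells against 140, 141 and 146 in the KO clone. No KO library reached the WT range of either gene. The log2FC of DKK1 was -1.05 (SE 0.0531, edgeR adjusted p 8.82e-18), and it was -0.98, under the fold threshold, without WT replicate 1. Per kb of annotated exon, DKK1 nevertheless had the highest level of all 58 members in both groups, 132 CPM per kb in WT and 64.0 in KO. CTNNB1 followed with 34.4 and 35.8. Without the division by length the order was reversed, with mean levels of 294 CPM in WT and 142 in KO for DKK1 and 404 and 420 for CTNNB1. NOTUM, an enzyme that removes the lipid from WNT ligands, had 5.47, 4.31 and 3.87 CPM in the WT cells against 1.87, 2.23 and 2.47 in the KO clone, and its log2FC of -1.11 (edgeR adjusted p 4.85e-07) was -0.95 without WT replicate 1. SFRP1, a secreted decoy that resembles the ligand-binding part of Frizzled, had a log2FC of -0.17 (edgeR adjusted p 0.0121), which did not hold without KO replicate 1 (adjusted p = 0.051). FRZB, a decoy of the same family, had 0.363 ± 0.0361 CPM in the WT cells against 0.615 ± 0.0832 in the KO clone (SD, n = 3 each) and did not pass the test (log2FC 0.73, edgeR adjusted p 0.0686).

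The start regions are given here for LEF1, TCF7L1 and WIF1, whose changes were the largest among the members with a window at hand, and for DKK1, whose window alone among those of the members held the TCF/LEF motif. They are RefSeq windows on GRCh38.p14 from 250 bases before to 50 bases after the annotated start, in the direction of transcription: chr4:108166252-108166551 on the minus strand for LEF1, chr2:85133142-85133441 on the plus strand for TCF7L1, chr12:65121256-65121555 on the minus strand for WIF1 and chr10:52314031-52314330 on the plus strand for DKK1. The LEF1 window lies inside the gene as given above, which starts at 108168956 on the minus strand. It therefore belongs to an internal start, and the region at the outer start of LEF1 was not examined. Capitals mark the TCF/LEF motif, CTTTGAT or CTTTGAA on either strand.
LEF1: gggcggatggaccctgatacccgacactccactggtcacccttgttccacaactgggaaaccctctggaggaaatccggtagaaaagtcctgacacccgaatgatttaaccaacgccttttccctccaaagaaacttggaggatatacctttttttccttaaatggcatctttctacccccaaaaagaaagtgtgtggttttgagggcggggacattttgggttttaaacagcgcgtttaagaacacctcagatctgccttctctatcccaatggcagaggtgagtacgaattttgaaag
TCF7L1: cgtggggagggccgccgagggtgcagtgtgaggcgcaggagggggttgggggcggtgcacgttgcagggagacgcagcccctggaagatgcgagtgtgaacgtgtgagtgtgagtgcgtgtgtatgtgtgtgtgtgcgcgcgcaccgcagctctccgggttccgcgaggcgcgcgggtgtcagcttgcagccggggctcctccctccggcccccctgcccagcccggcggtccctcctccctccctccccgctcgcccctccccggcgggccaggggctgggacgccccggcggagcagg
WIF1: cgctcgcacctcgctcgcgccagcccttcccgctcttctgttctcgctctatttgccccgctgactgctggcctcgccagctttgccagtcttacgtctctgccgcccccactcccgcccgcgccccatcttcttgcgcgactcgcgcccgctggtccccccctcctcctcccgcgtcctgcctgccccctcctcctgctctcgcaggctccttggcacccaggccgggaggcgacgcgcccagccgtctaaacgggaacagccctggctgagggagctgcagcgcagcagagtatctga
DKK1: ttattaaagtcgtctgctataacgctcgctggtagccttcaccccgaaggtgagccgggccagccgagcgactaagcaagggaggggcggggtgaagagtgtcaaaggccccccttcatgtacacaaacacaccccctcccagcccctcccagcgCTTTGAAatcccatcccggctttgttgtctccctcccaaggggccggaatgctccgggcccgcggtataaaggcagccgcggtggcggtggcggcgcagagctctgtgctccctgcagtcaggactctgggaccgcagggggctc
The motif occurred once, as CTTTGAA 95 bases before the start of DKK1, and not in the other 3 windows. A window was at hand for 42 of the 58 members, 8 of the 14 past both thresholds among them, and 1 of their 52 windows (1.92%) held the motif, against 6.86% of 35116 windows of all genes and 4.23% of those of tested genes. These letters are a match and not a shown binding site. The windows also differed in CpG dinucleotides, with 9 for LEF1, 31 for TCF7L1, 29 for WIF1 and 20 for DKK1, where the median window of a tested gene held 25. For LEF1 the motif and CpG values describe the internal window only.

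Several members are known target genes of the pathway that feed back on it, and they did not move in 1 direction. AXIN2, the scaffold of the destruction complex and a widely used readout of the pathway, had 5.29, 6.14 and 6.75 CPM in the WT cells against 1.99, 2.38 and 2.87 in the KO clone, a log2FC of -1.32 (SE 0.151, edgeR adjusted p 3.88e-09). NKD1, which binds Dishevelled and dampens the signal, had 9.74, 12.5 and 13.2 CPM in the WT cells against 2.08, 2.08 and 2.14 in the KO clone, a log2FC of -2.47 (SE 0.139, edgeR adjusted p 1.3e-16). For both genes all KO libraries lay below all WT libraries. NKD2, the related gene, had 7.59, 7.28 and 7.74 CPM in the WT cells against 3.95, 3.94 and 2.92 in the KO clone. Its log2FC was -1.03 (edgeR adjusted p 1.76e-08), and -0.93 without KO replicate 3. RNF43, a ubiquitin ligase that removes Frizzled receptors from the cell surface and is also a known target, went the other way. It had 0.876, 0.968 and 0.54 CPM in the WT cells against 2.77, 3.01 and 3.43 in the KO clone, so the groups did not overlap, with a log2FC of 1.82 (SE 0.209, edgeR adjusted p 4.6e-09).

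Of the 16 WNT ligands, 8 were tested, with a median log2FC of -0.51, and 6 of these were lower in KO at an adjusted p under 0.05 in edgeR, as were 32.0% of all tested genes. WNT5B, a ligand known mainly for signalling without beta-catenin, was the one past both thresholds. It had 5.66, 6.14 and 5.85 CPM in the WT cells against 2.65, 2.56 and 2.42 in the KO clone, a log2FC of -1.21 (SE 0.137, edgeR adjusted p 3.83e-09). WNT10B, a ligand of the beta-catenin branch, had 18.0, 17.0 and 15.3 CPM in the WT cells against 9.08, 8.51 and 7.81 in the KO clone. Its log2FC of -1.0 lay at the threshold without passing it (edgeR adjusted p 2.33e-11), and it passed with voom/limma and in 3 of the 6 fits without 1 library. WNT3A, WNT2B, WNT9A and WNT5A had log2FC values between -0.62 and -0.32, of which that of WNT9A had an adjusted p of 0.0538 without KO replicate 2. WNT11 was the ligand that rose, with 1.02, 0.935 and 1.08 CPM in the WT cells, 2.08, 1.93 and 1.85 in the KO clone and a log2FC of 0.98 (edgeR adjusted p 1.78e-04). WNT3 did not pass the test (log2FC 0.10, edgeR adjusted p 0.19).

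Per kb of exon, the ligands together had 25.2, 24.4 and 24.7 CPM in the WT cells against 19.1, 18.1 and 18.1 in the KO clone, so every KO library was lower. WNT10B held 26.1% ± 1.92 of the ligand sum in WT and 17.6% ± 0.908 in KO (SD, n = 3 each). WNT5A held 24.0% ± 0.543 and 25.6% ± 1.44, and WNT3 20.2% ± 0.548 and 28.9% ± 1.26. On this scale WNT10B, WNT5A, WNT3 and WNT3A had the highest transcript levels among the ligands in both groups. The place of WNT3A depends on the division by length. In CPM alone, WNT2B lay above it, with means of 12.1 against 10.7 in WT and 8.56 against 6.82 in KO. Transcripts of WLS and PORCN, the 2 members that prepare ligands for secretion, moved the other way from the ligand sum. WLS, the carrier that takes WNT ligands to the cell surface, had 10.9, 11 and 11.2 CPM in the WT cells against 37.9, 36.8 and 35.5 in the KO clone. This was a 3.34-fold rise, with a log2FC of 1.74 (SE 0.0716, edgeR adjusted p 2.88e-20). PORCN, the enzyme that attaches the lipid, had 12, 11.6 and 11.4 CPM in the WT cells against 19.4, 19.1 and 20.3 in the KO clone. Here too every KO library was higher, with a log2FC of 0.74 (edgeR adjusted p 9.62e-10).

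Among the Frizzled receptors, FZD6 and FZD3, known for planar cell polarity, fell past both thresholds. FZD6 had 4.6, 4.27 and 7.02 CPM in the WT cells against 0.529, 0.557 and 0.674 in the KO clone, a log2FC of -3.09 (SE 0.226, edgeR adjusted p 1.34e-13). FZD3 had 23.2, 22.4 and 25.2 CPM in the WT cells against 6.27, 5.79 and 6.57 in the KO clone, a log2FC of -1.92 (SE 0.089, edgeR adjusted p 7.55e-19). The WT libraries of FZD6 spread more widely than those of FZD3, with WT replicate 3 the highest, and neither gene's groups overlapped. FZD7, a receptor of the beta-catenin branch, had 32.8, 33.6 and 35.9 CPM in the WT cells against 17.7, 19.3 and 19.3 in the KO clone. FZD7, FZD4 and FZD2 were lower by less than the fold threshold, with log2FC values of -0.85, -0.55 and -0.37, and FZD1, FZD5 and FZD8 did not pass the test. FZD1 was the receptor with the highest level, 14.6 CPM per kb in WT and 15.3 in KO, which was 39.5% ± 1.71 of the Frizzled sum in WT and 52.3% ± 0.782 in KO (SD, n = 3 each). The sum itself was 35.9, 37.1 and 37.4 CPM per kb in WT and 29.4, 28.7 and 29.4 in KO. The coreceptors changed little, LRP5 with a log2FC of -0.24 (edgeR adjusted p 5.75e-04) and LRP6 with 0.20 (edgeR adjusted p 0.0028). LGR4, a receptor for R-spondins, which strengthen Wnt signalling, had 24.9, 24.0 and 26.5 CPM in the WT cells against 13.4, 12.9 and 12.9 in the KO clone, a log2FC of -0.93 (SE 0.075, edgeR adjusted p 1.45e-12).

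The core of the cytoplasmic relay changed by less than the fold threshold. APC and GSK3B, of the destruction complex, had log2FC values of 0.41 and 0.30 (adjusted p = 1.42e-06 and 1.55e-05, edgeR), and AXIN1 one of -0.09 that did not pass the test (edgeR adjusted p 0.142). Of the Dishevelled genes, DVL3 had a log2FC of 0.26 (edgeR adjusted p 3.67e-05), DVL2 one of -0.28 (edgeR adjusted p 2.24e-05) and DVL1 one of 0.10 (edgeR adjusted p 0.144). DVL3 was the most abundant of these 3 in both groups, with 22.3 CPM per kb in WT and 26.7 in KO.

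The other 16 members did not pass the filter. WNT1, WNT2, WNT10A, WNT16, FZD10, SFRP2, LGR5 and RSPO3 had 0 counts in every library, which is at most 0.27 CPM at a floor of 3 counts. WNT4, WNT6, WNT7A, WNT7B, FZD9, DKK2, SFRP4 and RSPO1 had at most 9 counts in any library. LGR5, the stem cell marker and R-spondin receptor, and the R-spondins of the set were therefore not detectable or near the floor at this depth in either group.

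Genes of the pathway outside the set were examined in 5 lists written by hand, with 151 genes in all, and 116 of these were tested. Both thresholds were passed by 8 that rose (6.9%) and 9 that fell (7.76%), shares close to the 8.30% and 7.73% of all tested genes, so the genes named from these lists are a description and no result about the pathway. The median log2FC was -0.05, close to that of all tested genes. In the list of 39 reported target genes of beta-catenin with TCF/LEF, 25 were tested. Of these, 5 rose (MSX1, MITF, L1CAM, JUN and MSX2) and 4 fell (CDX2, FST, TNFRSF19 and CCND1). Unlike the pooled shares, both shares of this list were above those of all tested genes. The same held for the list of other extracellular regulators, and in each of the remaining lists both shares were below. Such shares of single lists rest on few genes, and the counts moved with the filter. MSX1, a homeobox factor, had 4, 6 and 8 counts in WT and 328, 345 and 177 in KO, a log2FC of 5.50 (edgeR adjusted p 5.35e-20). CCND1, the gene of cyclin D1, fell from 341 to 166 CPM on average, a log2FC of -1.04 (edgeR adjusted p 5.63e-19). CDX2, an intestinal homeobox factor, had 62, 68 and 17 counts in WT and 0 in each KO library, which was at least 12-fold lower than the mean WT level when the floor of 3 counts per library is used. MSX2 had a log2FC of 1.02, and 0.98 without WT replicate 1, which is under the fold threshold. Of the 17 list genes past both thresholds, 8 were over the filter cutoff in all libraries of 1 group only, a selection that favours differences. They were MSX1, CDX2, FST and TNFRSF19 among the targets, and SOSTDC1, PRICKLE1, PLCB1 and NFATC2 in the other lists.

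In the list of other extracellular regulators, 8 of 21 were tested. GPC4, a glypican that binds WNT ligands at the cell surface, rose from 30.8 to 149 CPM on average (log2FC 2.28, edgeR adjusted p 1.35e-26), SOSTDC1, a secreted inhibitor, had a log2FC of 3.76 from at most 4 counts in a WT library, and DKKL1 one of -1.20. Of 30 tested genes among other receptors and relay proteins, APC2, a relative of APC, and ROR1, a receptor for WNT5A, fell, with log2FC values of -1.61 and -1.42. Of 27 tested genes of the polarity and calcium branches, PRICKLE1 rose with a log2FC of 2.30, and NFATC2, a calcium-regulated factor, and PLCB1, a phospholipase, fell with -4.05 and -5.13. Of 27 tested cofactors and repressors of TCF/LEF factors, 0 passed both thresholds in edgeR, voom/limma or DESeq2, 10 were higher and 9 lower at an unadjusted p under 0.05 in edgeR, and log2FC values lay between -0.99 and 0.72.

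LEF1 and TCF7 are also known from lymphocytes, so 14 markers of T and B cells were examined. CD2, CD3D, CD3G, CD8B, IL7R and MS4A1 had 0 counts in all libraries, and 3 of the 14 markers exceeded 3 counts in any library of either group. Their summed level was 10.6 to 12.7 CPM in WT and 7.75 to 7.81 CPM in KO, nearly all of it from CD8A, a T cell marker with 11.1 CPM on average in WT and 7.41 CPM in KO (log2FC -0.57, edgeR adjusted p 7.08e-06). Of 7 fibroblast markers, whose summed level was 11100 to 11500 CPM in WT and 8540 to 8820 CPM in KO, COL1A1, PDGFRA, PDGFRB, DCN and LUM fell past both thresholds. DCN and LUM held at most 0.81 CPM in a WT library and had 0 counts in every KO library. COL3A1, the marker with the highest level, had 6010 CPM on average in WT and 5960 CPM in KO and did not pass the test (log2FC -0.01, edgeR adjusted p 0.863). COL1A2 fell by less than the fold threshold (log2FC -0.8). The 5 endothelial markers summed to 0.146 to 0.367 CPM in WT and 0.73 to 0.929 CPM in KO. VWF, the only one of them tested, rose past both thresholds (log2FC 2.0, edgeR adjusted p 1.04e-04). It had 2, 7 and 3 counts in WT, at most 0.27 CPM, and 18, 22 and 10 counts in KO. What part such cells or states have in the Wnt values was not tested.

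The genes around the members past both thresholds were then examined. Of all tested genes, 8.30% rose and 7.73% fell past both thresholds, so the counts of neighbours given here are a description. Within 500 kb of LEF1, 7 other genes were tested, and 0 passed both thresholds in edgeR, voom/limma or DESeq2, while 3 were higher and 3 lower at an unadjusted p under 0.05 in edgeR and log2FC values lay between -0.59 and 0.86. Near WLS, 3 of 5 tested genes rose with it: GNG12 with a log2FC of 1.29, DIRAS3 with 3.36 and GNG12-AS1 with 3.51. GNG12-AS1 runs antisense through WLS, and the strand setting of the counting is not given in the sources used here, so reads of this pair cannot be told apart with certainty. GNG12-AS1 had a mean of 0.751 CPM in KO, against 36.7 CPM for WLS. Near TCF7L1, 1 of 16 tested genes fell, TMSB10 with a log2FC of -1.20, and 3 rose, DNAH6, CAPG and VAMP5. Near WIF1, 1 of 7 fell, TBC1D30 with a log2FC of -1.79. Around the other members past both thresholds, the genes that moved past both thresholds in the same direction as the member were RGS9 near AXIN2, FBXO16 near FZD3, GASAL1 near FZD6, MBL2 near DKK1, GALNT18 near DKK3, TEX14 and IGBP1C near RNF43, and 3 of 50 tested genes near NOTUM (BAHCC1, MCRIP1 and SECTM1). Near WNT5B, NKD1 and NKD2, whose tested neighbours numbered 5, 7 and 11, edgeR, voom/limma and DESeq2 called 0 in the direction of the member, with 2, 3 and 3 lower at an unadjusted p under 0.05 in edgeR. In the opposite direction moved CUEDC1 (log2FC -2.62), PPM1E (-1.98), VEZF1 (-1.03) and ENSG00000264112 (-1.02) near RNF43, which were more than the 2 that moved with it, SALL1 (1.47) near NKD1, and TEX19 (3.11), ENSG00000275902 (1.16) and ENSG00000260011 (1.16) near NOTUM. LEF1 and WIF1 therefore changed much more than any tested gene around them.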

How the data were processed

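RNA of 3 WT and 3 KO libraries was prepared with a stranded kit and sequenced as single-ended reads of 75 bp. The authors deposited raw counts per gene; their methods name FastQC, STAR alignment to GRCh38 and HTSeq-Count, while versions, annotation release and strand setting of the counting are not given in the sources used here. Libraries were grouped by the genotype in the labels. GENCODE 44 was joined on the identifier stripped of its version and holds 56321 of the 60483 listed genes, and exon lengths are the union of annotated exons, which understates levels of genes with long rare exons.

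KO was compared with WT by edgeR 4.0.16 in R 4.3.3 over all genes (filterByExpr with a minimum count of 10 and a minimum total of 15, TMM, two-sided quasi-likelihood test, Benjamini-Hochberg adjustment over 16198 genes), of which the members and lists are given. A call needs a log2 fold change beyond 1 in size and an adjusted p below 0.05, as in the study's methods. CPM used TMM-scaled totals. The standard error is the log2 fold change divided by the root of the F statistic. Where a group had at most 3 counts in each library, the ratio of pooled counts has an exact conditional interval. The exact permutation test used log2 of CPM plus 0.5. Members, lists and named genes were chosen with earlier results of these data known. Named with values in every library are the TCF/LEF factors, CTNNB1 and members past both thresholds; other members are given by role, and list genes past both thresholds and neighbours within 500 kb that move with a member by name. WNT10B, WNT11, LGR4, PORCN, FZD7, and markers and the opposite-direction neighbours, were added with their values seen.

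Alternatives were voom/limma (limma 3.58.1), DESeq2 1.42.0, median-of-ratios and upper-quartile scaling, 2 other filters, thinning to the smallest total, the omission of each library, and a test against the fold threshold. The fits were tested on simulated data first. Promoter windows are from RefSeq; protein sequences were not used here. Figures were drawn in Python 3.11.15 with matplotlib 3.10.9.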

Additional observations from a re-analysis of the deposited data

How the results depend on the processing

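No paired analysis was possible because the labels number the libraries from 1 to 6 and tie no WT library to a KO library. Of the 42 tested members, 37 kept their call on both thresholds in each of 13 alternative fits in which they were tested; DKK1, NKD2, NOTUM, WNT10B and WNT11 lie near the fold threshold and changed sides in 1 to 4 fits. With at least 10 counts required in every library, 1 member was higher past both thresholds, since LEF1 and RNF43 were not tested there. The test against the fold threshold itself was not among those 13 fits. There 6 members were lower in place of 11, so some of the 37 lost their call in it. The median log2 fold change of the tested members was -0.28 with upper-quartile scaling, which moved the median of all genes to 0.028, and -0.34 without a filter. Counts in the pathway lists were small and moved with the filter. Without a filter, the other extracellular regulators had 3 lower, the other receptors and relay proteins 2 higher, and the polarity and calcium branches 2 higher. With at least 10 counts in every library, the extracellular regulators had 1 higher, the polarity and calcium branches 0 higher and 0 lower, and the reported targets 1 lower. In thinned libraries, the extracellular regulators had 0 lower, the cofactors and repressors of TCF/LEF 1 lower, and the reported targets 2 lower. Over the fits that omit 1 library each, the cofactors and repressors had 0 to 1 lower. Of the list genes named, MSX2 was under the fold threshold without WT replicate 1 (0.98) and DKKL1 in thinned libraries (-0.90). LEF1, WIF1 and other members near 0 in a group are limited by the depth of that group, of which WT replicate 3 has the least.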
